A study of Yarrowia lipolytica with 3 samples.

Results

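The citrate cycle enzymes described here are 10 genes of the yeast Yarrowia lipolytica, chosen by identifier from the 6448 genes listed in each RNA-seq library. They are CIT1 (YALI0E00638g), CIT2 (YALI0E02684g), ACO1 (YALI0D09361g), IDH1 (YALI0E05137g), IDH2 (YALI0D06303g), KGD1 (YALI0E33517g), SDH1 (YALI0D11374g), FUM1 (YALI0C06776g), MDH1 (YALI0D16753g) and MDH2 (YALI0E14190g). The files hold no gene names, and the names given here come with the identifiers. The coding lengths recovered from the values lay within 15% of those of the Saccharomyces cerevisiae proteins, as recalled, for all 10 names, MDH2 only at 2 times its recovered length, and within 5% for 9. That check is weak, since a recovered length could be multiplied by up to 5 to meet the limit. On average 43.4% of all identifiers would pass the 15% limit for a given name. The study sequenced total RNA from 3 cultures with strain PO1a as the source. One came from a mutant that overexpresses MHY1, one from an mhy1 deletion mutant and one from the wild-type strain, so each group is 1 library. Each was a 50 ml culture in YNDC7 medium supplemented with uracil, grown at 30 °C to an OD600 of 0.8. Neither the promoter behind the overexpression nor the number of clones is stated in the labels.

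The citrate cycle oxidises the acetyl group of acetyl-CoA in the mitochondrion and passes the electrons to the respiratory chain. Citrate synthase opens the cycle, aconitase and isocitrate dehydrogenase carry citrate to 2-oxoglutarate, and the 2-oxoglutarate and succinate dehydrogenases, fumarase and malate dehydrogenase return the carbon to oxaloacetate. Yarrowia is known for secreting citrate and for building storage lipid from acetyl-CoA that is made from exported citrate. The MHY1 product is a transcription factor of the C2H2 zinc-finger class, named for its part in the change from yeast cells to hyphae.

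Values are RPKM as deposited, read numbers scaled to gene length and library size, so that levels of different genes can be set side by side. The RPKM steps implied totals of 75306802 reads for the overexpression library, 59527000 for the deletion library and 47622181 for the wild-type library. MHY1 itself (YALI0B21582g) stood at 1159 RPKM with overexpression, at 0 in the deletion library and at 467 RPKM in wild type, in the order of the strain labels. With 1 library per strain no difference has a replicate check and no test was run. The intervals given with ratios are 95% intervals that cover counting error only. In a bulk culture, a change in the share of cells of one form and a change of RNA per cell cannot be told apart.

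All 10 enzymes were strongly expressed. They passed the filter of 1 RPKM in at least 1 library and belonged to the 604 genes of the highest expression decile (a mean of at least 278 RPKM over the libraries, among the 6035 genes compared). Their levels spanned 325 to 1742 RPKM with overexpression, 549 to 3185 RPKM in the deletion library and 373 to 2102 RPKM in wild type. Even the lowest of them ranked 527 of the 6448 genes in the overexpression library, 345 in the deletion library and 472 in wild type. Between 24513 and 279094 reads lay behind each value, so the counting intervals are narrow.

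**Figure D1:**
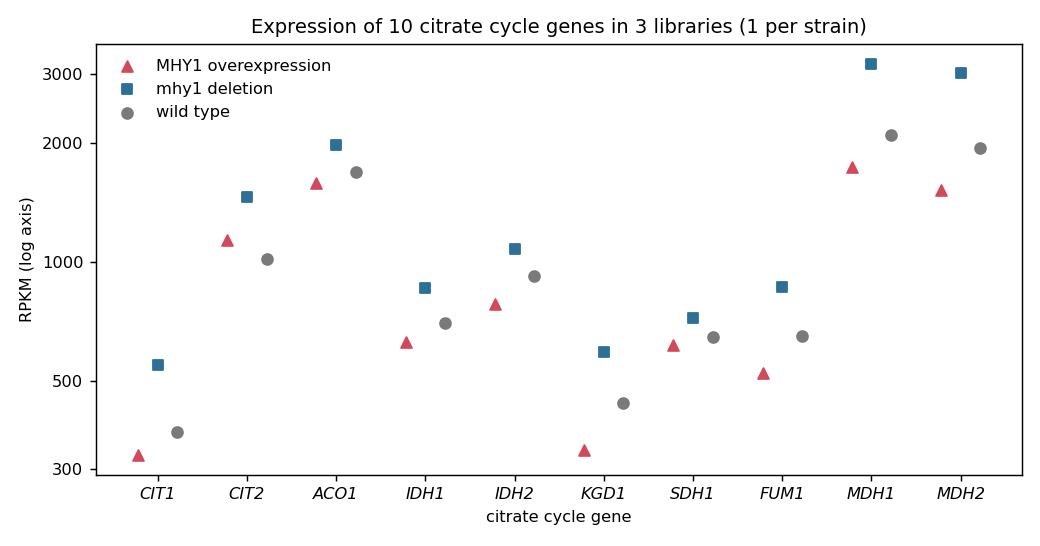
RPKM (log axis) of each of the 10 citrate cycle genes in the MHY1 overexpression, mhy1 deletion and wild-type libraries, 1 point per library. The deletion library is the highest of the 3 for every enzyme, and the overexpression library is the lowest for every enzyme except CIT2.

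Citrate synthase joins acetyl-CoA and oxaloacetate. CIT1 was at 325 RPKM with MHY1 overexpression, 549 RPKM in the deletion library and 373 RPKM in wild type. It was thus 1.47-fold higher in the deletion library than in wild type (interval 1.45 to 1.49) and 1.15-fold lower with overexpression (1.13 to 1.17). CIT2, the more abundant of the pair, was at 1141 RPKM with overexpression, 1464 RPKM in the deletion library and 1019 RPKM in wild type. Like CIT1 it was highest in the deletion library, 1.44-fold above wild type (1.42 to 1.45). It differed from the other 9 enzymes in that overexpression was also above wild type, by 1.12-fold (1.11 to 1.13). That margin depended on scaling. The log2 ratio was 0.16 as deposited, 0.05 with upper-quartile scaling, 0.005 after centring and 0.003 with median of ratios scaling.

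Aconitase and the NAD-dependent isocitrate dehydrogenase take citrate to 2-oxoglutarate. ACO1, which isomerises citrate to isocitrate, was at 1584 RPKM with overexpression, 1987 RPKM in the deletion library and 1690 RPKM in wild type. Its level was 1.18-fold higher in the deletion library than in wild type (1.17 to 1.18) and 1.07-fold lower with overexpression (1.06 to 1.07). IDH1, a subunit of isocitrate dehydrogenase, was at 629 RPKM with overexpression, 861 RPKM in the deletion library and 705 RPKM in wild type. IDH2, the partner subunit, was at 784 RPKM with overexpression, 1084 RPKM in the deletion library and 923 RPKM in wild type. Both subunits lay close together in their ratios. In the deletion library IDH1 was 1.22-fold and IDH2 1.17-fold higher than in wild type, and with overexpression they were 1.12-fold and 1.18-fold lower.

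The next steps oxidise 2-oxoglutarate and succinate. KGD1, the first component of the 2-oxoglutarate dehydrogenase complex, was at 335 RPKM with overexpression, 594 RPKM in the deletion library and 440 RPKM in wild type. Of the 10 enzymes it was the one furthest below wild type with overexpression, 1.31-fold lower (1.30 to 1.33), and it was 1.35-fold higher in the deletion library (1.34 to 1.36). SDH1, the flavoprotein subunit of succinate dehydrogenase, which is also complex II of the respiratory chain, was at 620 RPKM with overexpression, 723 RPKM in the deletion library and 647 RPKM in wild type. It differed least among the strains, at 1.12-fold higher in the deletion library (1.11 to 1.13) and 1.04-fold lower with overexpression (1.03 to 1.06) than in wild type.

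Fumarase and malate dehydrogenase close the cycle. The files do not say in which compartment the product of either malate dehydrogenase gene acts, so a mitochondrial place for both is not shown. FUM1 was at 526 RPKM with overexpression, 869 RPKM in the deletion library and 651 RPKM in wild type, 1.34-fold higher in the deletion library (1.32 to 1.35) and 1.24-fold lower with overexpression (1.22 to 1.25). MDH1, the most abundant of the 10, was at 1742 RPKM with overexpression, 3185 RPKM in the deletion library and 2102 RPKM in wild type. MDH2 followed it closely, at 1521 RPKM with overexpression, 3013 RPKM in the deletion library and 1949 RPKM in wild type. The malate dehydrogenase genes had the largest ratios of the 10 in the deletion library, 1.52-fold (1.504 to 1.527) and 1.55-fold (1.53 to 1.56) above wild type for MDH1 and MDH2. With overexpression they were 1.21-fold (1.197 to 1.217) and 1.28-fold (1.27 to 1.30) lower than in wild type.

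Deletion against wild type asks which transcripts depend on MHY1. All 10 enzymes were higher in the deletion library, by 1.12-fold to 1.55-fold, where 46.2% of all genes compared and 63.9% of the highest expression decile had log2 ratios above 0. Counts and medians of log2 ratios are on the scale of RPKM plus 1. Of the 10, 2 (MDH1 and MDH2) were at least 1.5-fold higher, none was at least 1.5-fold lower and none reached 2-fold. Over all 6035 genes compared, 4.66% were higher by this margin and 13% were lower by it, and 1.66% were at least 2-fold higher. For the enzymes the median log2 ratio was 0.42, against −0.03 over all genes compared and 0.07 over the highest expression decile. CIT1, short of 1.5-fold as deposited, reached it with median of ratios scaling, with upper-quartile scaling and after centring. Of all genes compared, 5.68%, 5.73% and 5.24% were at least 1.5-fold higher under these 3 settings. Placed among all genes compared, the enzymes ranged from the 74.1th percentile (SDH1) to the 95.8th (MDH2).

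Overexpression against wild type asks which transcripts respond to extra MHY1. Here 9 of the 10 enzymes were lower in the overexpression library, by 1.04-fold to 1.31-fold, and CIT2 was higher. Log2 ratios below 0 were held by 33.3% of all genes compared and by 63.9% of the highest expression decile. None of the 10 reached 1.5-fold in either direction, where 16.8% of all genes compared were higher and 5.62% lower by that much. In the highest expression decile the balance was reversed, with 6.29% higher and 10.1% lower. The median log2 ratio of the enzymes was −0.22, against 0.16 over all genes compared and −0.09 over the highest expression decile. Median of ratios scaling took the median of all genes from 0.16 to 0.004. Centred on the median of all genes, the enzymes' median was −0.37 and that of the highest expression decile −0.25.

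**Figure D2:**
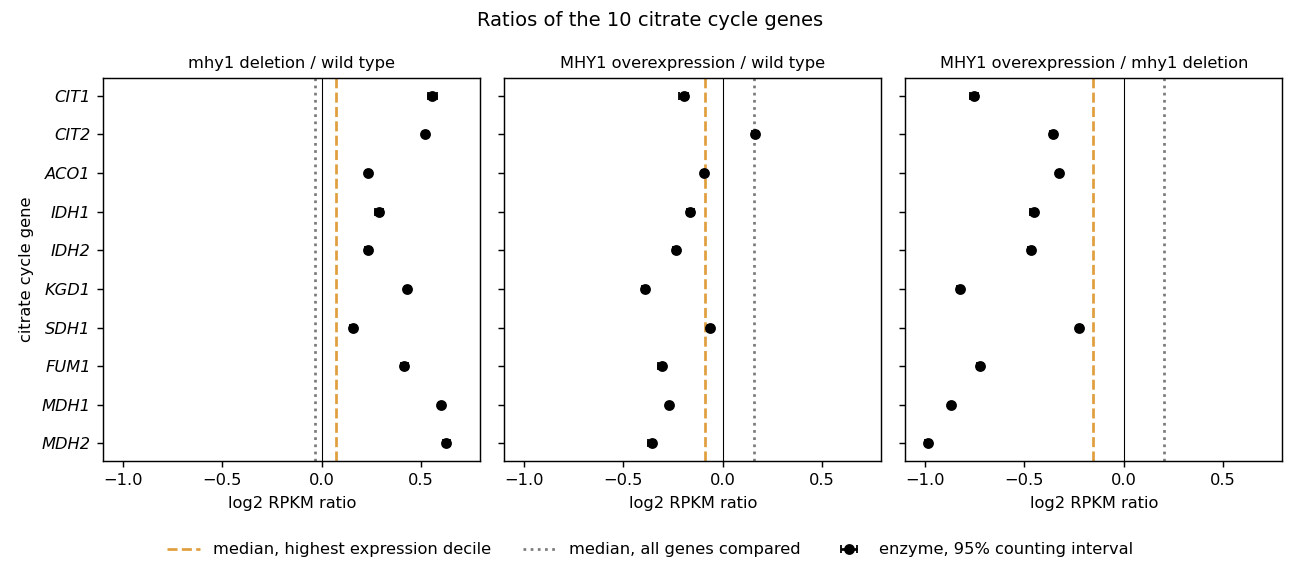
Log2 RPKM ratios of the 10 citrate cycle genes in 3 comparisons, 1 library against 1, with 95% counting intervals, most of them narrower than the points. Dashed and dotted lines are the median log2 ratios (RPKM plus 1) of the highest expression decile and of all genes compared. All points lie right of 0 in the first panel, 9 of 10 left of 0 in the second and all left of 0 in the third.

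Overexpression against deletion uses no wild-type library and spans the full range of MHY1. Each of its ratios follows from the 2 ratios to wild type already given, so it is not a separate observation. All 10 enzymes were lower in the overexpression library, where 35.4% of all genes compared and 66.2% of the highest expression decile had log2 ratios below 0. The count at least 1.5-fold lower was 5, made up of MDH2 (1.98-fold, 1.960 to 2.002), MDH1 (1.83-fold, 1.82 to 1.84), KGD1 (1.77-fold, 1.76 to 1.79), CIT1 (1.69-fold, 1.66 to 1.71) and FUM1 (1.65-fold, 1.63 to 1.67). The same was true of 8.8% of all genes compared and of 16.2% of the highest expression decile. The other 5 were within 1.5-fold, from 1.17-fold lower for SDH1 to 1.38-fold lower for IDH2. No enzyme reached 2-fold on the RPKM plus 1 scale. At least 2-fold lower were 4.74% of all genes compared and 51 of the 604 genes of the highest expression decile. MDH2, the enzyme closest to 2-fold, went beyond it with either scaling. The median log2 ratio of the enzymes was −0.60, against 0.20 over all genes compared and −0.15 over the highest expression decile. Centred on the median of all genes, the enzymes' median was −0.80 and that of the highest expression decile −0.36.

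**Figure D3:**
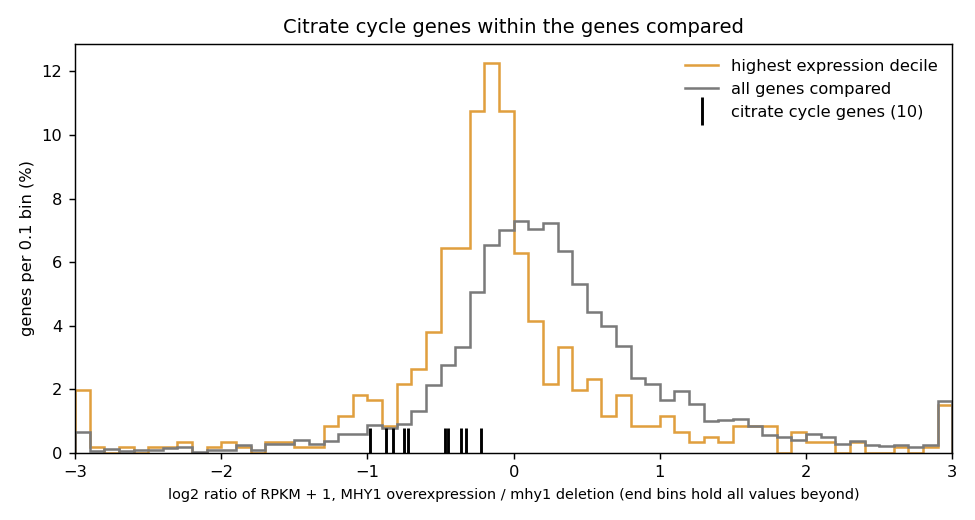
Log2 ratios (RPKM plus 1) of MHY1 overexpression over mhy1 deletion, as the percentage of genes per bin of 0.1 for the highest expression decile and for all genes compared. The 10 black ticks are the citrate cycle genes, all left of 0, between −0.99 and −0.22.

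Across the 3 libraries, 9 of the 10 enzymes stood in the same order, highest in the deletion strain, then wild type, then overexpression. Each of the 9 had counting intervals off 1 on both sides of wild type. With so many reads per enzyme, small differences suffice for that, and its share in the highest expression decile was not computed. This order, the reverse of MHY1, was that of 18.7% of all genes compared and of 45.9% of the highest expression decile, and 13.4% of all genes compared held it with both counting intervals off 1. It was thus the commonest of the 6 possible orders among strongly expressed genes as a whole. CIT2 was the exception, with overexpression between deletion and wild type, an order held by 9.88% of all genes compared and 10.1% of the decile. Both ratios to wild type share the wild-type library, so the order is not 2 independent observations.

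**Figure D4:**
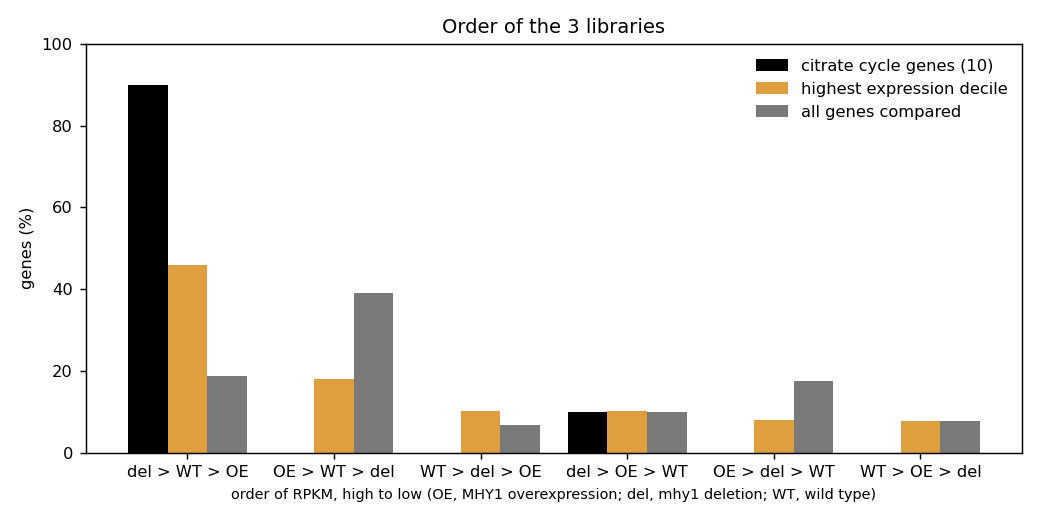
Percentage of genes in each order of the 3 libraries by RPKM, for the 10 citrate cycle genes, the highest expression decile and all genes compared. The order deletion, wild type, overexpression holds 9 of the 10 enzymes, 45.9% of the decile and 18.7% of all genes.

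Isozyme and subunit genes were compared within each library. CIT2 exceeded CIT1 in every library, 3.51-fold with overexpression (3.47 to 3.55), 2.67-fold in the deletion library (2.64 to 2.70) and 2.73-fold in wild type (2.69 to 2.77). The CIT2 share of the citrate synthase RPKM was thus 77.8% with overexpression, 72.7% in the deletion library and 73.2% in wild type, with the overexpression library apart from the others beyond counting error. Summed citrate synthase RPKM was 1467 with overexpression, 2012 in the deletion library and 1392 in wild type. The isocitrate dehydrogenase subunits kept a narrower range, with IDH2 over IDH1 at 1.25 with overexpression (1.23 to 1.26), 1.26 in the deletion library (1.24 to 1.27) and 1.31 in wild type (1.29 to 1.33). MDH1 over MDH2 was 1.15 with overexpression (1.13 to 1.16), 1.06 in the deletion library (1.05 to 1.07) and 1.08 in wild type (1.07 to 1.09). How the authors' counting treated reads shared between paralogous genes is not stated in the labels, so the split within the citrate synthase and malate dehydrogenase pairs is uncertain.

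**Figure D5:**
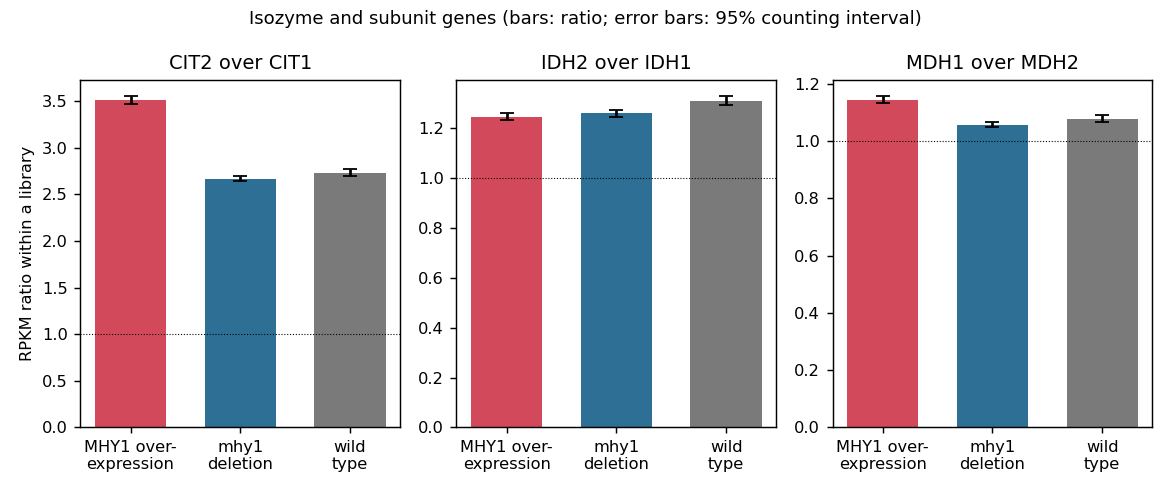
RPKM ratio within each library of CIT2 over CIT1, IDH2 over IDH1 and MDH1 over MDH2, with bars for the ratio and error bars for the 95% counting interval. CIT2 over CIT1 is 3.51 with MHY1 overexpression, against 2.67 in the mhy1 deletion library and 2.73 in wild type.

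Summed over the 10 enzymes, the RPKM was 9207 with overexpression, 14328 in the deletion library and 10499 in wild type. Of the summed RPKM of all genes this was 0.906% with overexpression, 1.37% in the deletion library and 1.02% in wild type. The sum was 1.36-fold higher in the deletion library than in wild type and 1.14-fold lower with overexpression. MDH1 and MDH2 together made up 35.4% of the enzyme sum with overexpression, 43.3% in the deletion library and 38.6% in wild type. Without them the other 8 enzymes summed to 5945 RPKM with overexpression, 8131 RPKM in the deletion library and 6448 RPKM in wild type, 1.26-fold higher in the deletion library and 1.08-fold lower with overexpression than in wild type. The malate dehydrogenase sum alone was 1.53-fold higher in the deletion library and 1.24-fold lower with overexpression.

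A list of 18 other genes around the cycle was set beside the enzymes. It was drawn from general knowledge of Yarrowia identifiers, but with earlier results of these data known. Its counts beside those of all genes are therefore descriptive only. The list covers further subunits of the cycle's enzymes, pyruvate entry, citrate export and cleavage, the glyoxylate shunt and the alternative oxidase. The median log2 ratio of the list was 0.21 for deletion against wild type, −0.11 for overexpression against wild type and −0.25 for overexpression against deletion. In the deletion library 14 of the 18 had log2 ratios above 0. The same held for 46.2% of all genes compared and 63.9% of the highest expression decile. Of the 18, 3 were at least 1.5-fold higher than in wild type, where 4.66% of all genes compared were. These were listed as ICL1 (YALI0C16885g, isocitrate lyase of the glyoxylate shunt), MLS1 (YALI0D19140g, a malate synthase) and AOX1 (YALI0D09933g, the alternative oxidase). With overexpression 13 of the 18 had log2 ratios below 0, against 33.3% of all genes compared and 63.9% of the highest expression decile. Of the 18, 2, MLS1 and AOX1, were at least 1.5-fold lower than in wild type, where 5.62% of all genes compared were. Between overexpression and deletion 6 were at least 1.5-fold lower with overexpression, where 8.8% of all genes compared and 16.2% of the highest expression decile were. In the same comparison 1 was higher by that much, where 27.7% of all genes compared were.

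Side by side with the cycle enzymes, MLS1 was 7.36-fold lower with overexpression than in the deletion library (6.85 to 7.91), AOX1 5.01-fold lower (4.89 to 5.14) and ICL1 1.78-fold lower (1.77 to 1.79). Of the 18 genes, 11 stood in the order deletion, wild type, overexpression, where 18.7% of all genes compared and 45.9% of the highest expression decile did. None of the 18 is annotated in the files. The 14 genes of the list other than ICL1, MLS1, MLS2 and AOX1 are counted here without names. Of these 14, 9 stood in that order. None of the 14 was 1.5-fold different from wild type in either mutant library, and their log2 ratios ran from −0.25 to 0.38 in the deletion library and from −0.34 to 0.56 with overexpression.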

How the data were processed

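Total RNA of 3 cultures, 1 per strain, was sequenced from TruSeq RNA libraries made from 1 µg of RNA, per the labels' protocols. The authors deposited RPKM, per the file headers. TopHat2 2.1.1 and Cufflinks 2.2.1 are named without a role in the submitters' processing notes, with a mouse build that cannot hold Yarrowia identifiers. No yeast build, annotation, counting setting or strandedness is stated in the labels, so reads of overlapping or antisense genes may be included.

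Reads were recovered from the RPKM steps, first the relative depth from 392 genes under 2 RPKM and then totals and coding lengths, in Python 3.11.15 with numpy 2.4.6, pandas 2.3.3 and scipy 1.17.1. Of the values above 0, 99.98% came within 0.01 of a whole read. Each length was chosen so that reads came out whole, so this share is no independent check of them. The scripts were tested on simulated data. Recovered lengths can be a whole fraction of the true one, with reads too low by the same factor and intervals too wide. MDH2, recovered at 498 bp, may be of this kind, which was not tested. Ratios are RPKM ratios with exact conditional binomial intervals. Counts and medians use log2((x + 1)/(y + 1)) on RPKM over the 6035 genes that reach 1 RPKM in any library. A gene was counted as different at 1.5-fold and at 2-fold. The highest expression decile was formed by mean RPKM and added after values were seen.

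The files hold no gene names, and the RefSeq gene table of assembly ASM176148v1 held 0 of the 6448 identifiers. The length check of the names passed MDH2 only at 2 times its recovered length, 12.2% off, so it rests on that doubling. The rule for named genes took the 10 enzymes, MHY1, and those of the further list that reached 1.5-fold or were needed to describe it. It was departed from for part of that list, of which no gene is annotated in the files. The genes counted without names that reached 1.5-fold were 3 lower and 1 higher with overexpression than in the deletion library. The members, lists and thresholds were chosen with earlier results of these data known. Alternatives were a pseudocount of 0.1 or 5, dropping the filter or raising it to 10 RPKM, scaling by median of ratios or by upper quartile, centring on the median of all genes, and a 4-fold threshold.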

Additional observations from a re-analysis of the deposited data

How the results depend on the processing

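With 1 library per strain, no paired analysis was possible and no replicate could be left out. The 7 alternatives of pseudocount, filter and scaling gave 210 log2 ratios for the 10 enzymes. Filters cannot move a ratio, and pseudocounts cannot change its sign. The scalings and centring kept every sign, CIT2 for overexpression against wild type at 0.003 to 0.05. None fell under 1.5-fold and 9 reached it (CIT1 in the deletion library, IDH1 and IDH2 between overexpression and deletion, under both scalings and centring). The enzymes' median for overexpression against wild type was −0.38 with median of ratios scaling and −0.37 after centring. Between overexpression and deletion 0 enzymes (286 of all genes) were at least 2-fold lower as deposited. Median of ratios scaling gave 3 (388), centring 3 (386) and upper-quartile scaling 2 (370). The order deletion, wild type, overexpression held 9 of the 10 enzymes under each scaling and after centring. Of all genes it held 1128 as deposited, 1834 (30.4%) with median of ratios scaling, 1699 (28.2%) with upper-quartile scaling and 1720 (28.5%) after centring. In the highest expression decile these shares were 61.6%, 60.6% and 58.4%.

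At least 2-fold lower with overexpression than in wild type were 1 of the 18 other genes (149 of all genes) as deposited. They numbered 0 (119) with a pseudocount of 5, 0 (39) at 4-fold, and 2 (175 to 188) under both scalings and after centring. Higher in the deletion by 4-fold or more were 0 of the 18. Under both scalings and after centring, 1 of them was above 0 between overexpression and deletion. At least 1.5-fold higher were 0 (19.9% to 21.5% of all genes). Over all genes, with a pseudocount of 5 the deletion was lower by 2-fold or more for 211 genes, overexpression was higher than wild type by 1.5-fold or more for 657 and by 2-fold or more for 188, and overexpression was higher than deletion by 2-fold or more for 591. The 10 RPKM filter gave 238 at least 2-fold higher with overexpression than in wild type. The 4-fold threshold left 17 genes higher and 79 lower for deletion against wild type. It left 51 higher and 39 lower for overexpression against wild type, and 269 higher with 93 lower against deletion. In this last comparison 858 were at least 1.5-fold lower with median of ratios scaling and 852 after centring. Of genes 1.5-fold different, 74.9% were higher as deposited and 57.6% after centring for overexpression against wild type, and 75.9% and 58.5% against deletion. Causes not fixed by construction were not tested. A higher pseudocount, filter or threshold lowers a count. Centring shifts all log2 ratios of a comparison equally, and scaling nearly so for genes well above 1 RPKM.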

Other observations

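The genes on either side of each enzyme in identifier order are given for their position. The letter in a Yarrowia identifier names the chromosome, and by it 5 of the enzymes lie on E, 4 on D and 1 on C, none of them next to another. Of the 20 flanking identifiers, 18 reached 1 RPKM in some library. In the deletion library 7 of these 18 had log2 ratios above 0 against wild type, where 46.2% of all genes compared did, and the median was −0.05. None of the 18 was at least 1.5-fold higher and 2 were at least 1.5-fold lower, where 4.66% of all genes compared were higher and 13% lower. With overexpression 5 of the 18 were higher than in wild type by 1.5-fold or more and 2 were lower by as much, with a median of 0.14, where 16.8% of all genes compared were higher and 5.62% lower. The order deletion, wild type, overexpression was held by 4 of the 18 and by 18.7% of all genes compared. The flanking genes were added after values of the enzymes were seen, and no test was run.

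Within the list around the cycle, the 2 malate synthase genes stood far apart in level. MLS1 was at 7.41 RPKM with overexpression, 54.5 RPKM in the deletion library and 17.7 RPKM in wild type. MLS2 was at 311 RPKM with overexpression, 328 RPKM in the deletion library and 248 RPKM in wild type, so that it shared with CIT2 and ICL1 the order deletion, overexpression, wild type.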
